A study of Homo sapiens with 6 samples.

Results

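The mitotic kinases described here are the products of 10 genes, AURKA, NEK2, PLK1, PLK4, TTK, BUB1, BUB1B, CDK1, MASTL and PBK. They were taken as every probe set whose only gene symbol in the platform annotation is 1 of these 10, which gave 21 of 49293 non-control probe sets. All 10 genes, of 18132 with such a probe set, lay above the filter on low levels and were tested among 10879 genes. The cells were the established human line ARPE-19, from retinal pigment epithelium. The SATalpha group received a plasmid that carries GFP and satellite alpha, which is the repeat that makes up human centromeres, and the GFP group received the GFP plasmid as its control. Both groups were given 2.5 µg of plasmid per well in 6-well plates, and each holds 3 arrays. The share of cells that took up a plasmid and the time of harvest were not given in the sources used here. Nothing in the labels says whether the wells of a group were separate cultures, so the p-values measure a spread between wells that may be technical. Values are deposited log2 levels, taken as already normalized between arrays, and differences are SATalpha minus GFP.

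The products of these genes belong to protein kinase families and carry a cell through division. CDK1 with its cyclins starts mitosis, AURKA, PLK1 and NEK2 build and separate the spindle poles, and PLK4 sets off the copying of centrioles. TTK, BUB1 and the product of BUB1B hold back anaphase until chromosomes are attached, MASTL shuts off the phosphatase that opposes CDK1, and PBK is a kinase of dividing cells. Most of their messages are known to build up in G2 and mitosis and to be scarce in resting cells. In RNA from a whole well, fewer cells in mitosis and less of each message per cell cannot be told apart.

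With satellite alpha, 8 of the 10 kinases fell, and the percentage of all tested genes that fell by the same test was 13.0%. The set was chosen with earlier results of these data known, so this count describes the set and is no test of it. The test was limma, with p-values adjusted by the Benjamini-Hochberg method across all 10879 genes and called under 0.05. The 8 were AURKA, NEK2, PLK1, TTK, BUB1, BUB1B, CDK1 and PBK, with log2 differences of -0.78 to -0.26 and adjusted p-values of 1.12e-07 to 0.00188. Their levels with satellite alpha were 58.3% to 83.3% of those with GFP. PLK4 did not pass the threshold. MASTL was higher by a small margin, a call also made for 7.72% of all tested genes, and that call depended on the fit. The median over the 10 genes was -0.38, beside -0.02 over all tested genes.

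Several of these genes are known to be driven in G2 through 2 short promoter elements, the cell cycle genes homology region (CHR) and the NF-Y box. Their start regions are shown because 8 of the 10 kinases fell, and PLK4 is shown beside them as one that did not pass. RefSeq windows of 300 bases around a start site (GRCh38.p14) ran from 250 bases before it to 50 after. They were used for 7 of the 10 genes and numbered 10, since PLK4 has 3 start sites and CDK1 has 2. AURKA and TTK had no entry. PBK, which also fell, was left out of the search, so whether it carries either motif was not tested. CHR was searched as TTTGAA or TTCGAA and the NF-Y box as CCAAT, on both strands, and no match of the 2 motifs overlaps the other kind. In the sequences below, written 5′ to 3′ on the gene's strand, capitals mark these matches. Each stretch is the 100 bases before a start site, except for CDK1, where it runs from position -180 to -81 of the first start. That choice takes in the CDK1 matches at -161 and -150. MASTL, CDK1 start 2 and PLK4 starts 2 and 3 are not printed, although the window of PLK4 start 3 has an NF-Y match at -86. MASTL has 2 CHR matches in its window. The capitals printed are thus a selection and do not compare kinases that fell with those that did not.
PLK1, chr16:23678789-23678888, plus strand: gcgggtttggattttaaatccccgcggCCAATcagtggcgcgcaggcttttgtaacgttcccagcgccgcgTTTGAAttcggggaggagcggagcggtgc
BUB1B, chr15:40160969-40161068, plus strand: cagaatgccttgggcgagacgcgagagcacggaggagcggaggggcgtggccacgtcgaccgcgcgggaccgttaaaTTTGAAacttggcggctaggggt
CDK1, chr10:60778151-60778250, plus strand: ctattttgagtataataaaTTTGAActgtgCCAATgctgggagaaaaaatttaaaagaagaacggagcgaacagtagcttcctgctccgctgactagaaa
BUB1, chr2:110678064-110678163, minus strand: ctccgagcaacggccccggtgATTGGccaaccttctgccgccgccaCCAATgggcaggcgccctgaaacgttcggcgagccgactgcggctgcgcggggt
NEK2, chr1:211675622-211675721, minus strand: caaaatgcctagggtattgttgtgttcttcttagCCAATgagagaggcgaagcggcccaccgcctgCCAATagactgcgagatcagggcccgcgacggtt
PLK4, first start, chr4:127880793-127880892, plus strand: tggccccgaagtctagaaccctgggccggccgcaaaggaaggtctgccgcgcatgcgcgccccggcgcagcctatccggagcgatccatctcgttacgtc

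CHR letters occurred in 7 of the 10 windows, against 16.4% of all 35116 RefSeq windows of this length. The 10 windows leave out AURKA, TTK and PBK, so these counts do not cover all the kinases that fell. NF-Y letters occurred in 6 of the 10, against 34.6% of all windows. Both were present in 4 of the 10 windows, those of PLK1, BUB1 and both CDK1 starts, against 6.38% of all. PLK1 and BUB1B carried TTTGAA shortly before the start, at -29 and -23. BUB1 had TTCGAA just after it, at position 2. NEK2 had 2 NF-Y boxes, at -66 and -34, and its window held no CHR letters. CDK1 start 2, not printed above, had NF-Y matches at -78 and -46 and CHR matches at -69, -13 and 10. Among the genes that did not fall, MASTL had TTTGAA at position 3 and its reverse complement at -248. PLK4 had its only CHR match at position 39 of the first start and its only NF-Y match before start 3. The kinases that fell and those that did not thus both include windows with CHR letters. A match is a run of letters, and binding was not measured here.

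**Figure D1:**
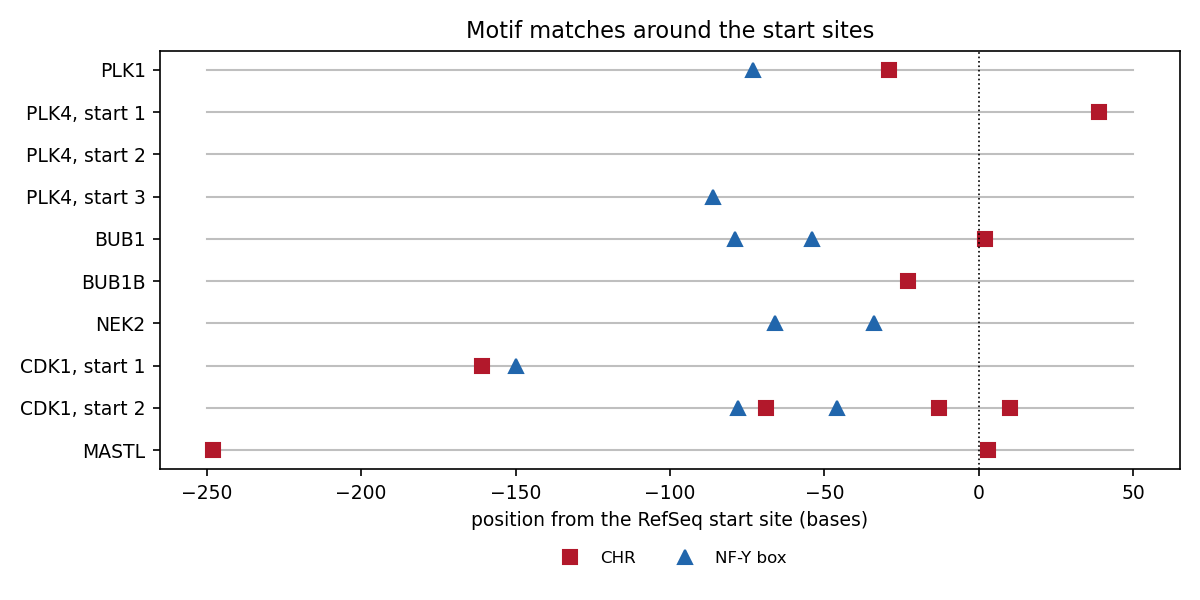
Positions of CHR (squares) and NF-Y box (triangles) matches in the 10 RefSeq windows of 7 kinase genes; the x axis is the distance in bases from each start site (dotted line), and grey lines span the window. PLK1, BUB1 and both CDK1 starts carry both kinds of match.

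AURKA and NEK2, kinases of the spindle poles, showed the largest decreases of the 10. PLK1 came next in the main fit, but as the mean of its probe sets it differed by -0.41, beside -0.47 for TTK. AURKA, which is activated on spindle microtubules by TPX2 and switches on PLK1, stood at 9.24, 9.13 and 9.29 with satellite alpha, against 10.04, 9.99 and 9.96 with GFP. The groups lay far apart relative to their spread, and the difference was -0.78 (SE 0.05, limma adjusted p = 1.12e-07), with a 95% confidence interval of -0.88 to -0.68. It ranked 25 among the 10879 genes counted from the largest decrease. NEK2, which releases the linker between the centrosomes, was at 7.93, 7.88 and 7.85 with satellite alpha, against 8.61, 8.65 and 8.59 with GFP. That difference was -0.73 (SE 0.05, limma adjusted p = 2.66e-07), of rank 31, with no overlap between the groups. The start region of NEK2 shown above holds a pair of NF-Y boxes, as do those of BUB1 and of CDK1 start 2 (not printed). CDK1 fell by less, at -0.30, so the pair is not particular to the largest decreases.

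PLK1, which acts in mitotic entry, spindle pole maturation and cytokinesis, had the widest spread with satellite alpha. Its levels were 5.98, 5.86 and 5.63 with satellite alpha, against 6.36, 6.39 and 6.32 with GFP. All 3 satellite alpha values were lower than the lowest GFP value, and the difference was -0.54 (SE 0.09, limma adjusted p = 0.00108) with an interval of -0.73 to -0.34. Its mean level was near the middle of the array, with 51.8% of genes at or below it. PLK4, its relative that acts on centrioles, was at 7.48, 7.34 and 7.53 with satellite alpha, against 7.35, 7.42 and 7.24 with GFP. These values overlapped. The difference of 0.11 did not pass (SE 0.07, limma adjusted p = 0.264), and its interval of -0.03 to 0.26 excludes a decrease of the size seen in any of the 8 kinases that fell. With 1 array left out, PLK4 differed by 0.06 (no GFP replicate 3) to 0.17 (no SATalpha replicate 2), and it passed in none of the 6 fits.

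Of the spindle checkpoint genes in the set, TTK (also called MPS1) starts the checkpoint signal at unattached kinetochores. It was at 7.61, 7.56 and 7.50 with satellite alpha, against 8.11, 7.90 and 8.06 with GFP. The groups did not overlap, and the difference was -0.47 (SE 0.06, limma adjusted p = 0.000191). BUB1, which marks centromeric chromatin by phosphorylating histone H2A, was at 8.54, 8.56 and 8.44 with satellite alpha, against 8.97, 8.90 and 8.91 with GFP. Its difference was -0.42 (SE 0.05, limma adjusted p = 6.42e-05). BUB1B, whose product BubR1 is part of the complex that inhibits the anaphase-promoting complex, was at 7.68, 7.65 and 7.77 with satellite alpha, against 8.10, 8.02 and 7.99 with GFP. The difference was -0.34 (SE 0.06, limma adjusted p = 0.000973). For both genes the lowest GFP value lay above the highest satellite alpha value.

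CDK1, the kinase that drives entry into mitosis, was at 8.90, 8.79 and 8.85 with satellite alpha, against 9.17, 9.11 and 9.17 with GFP. Its difference was -0.30 (SE 0.05, limma adjusted p = 0.000580). The interval of -0.40 to -0.20 did not meet that of AURKA but overlapped that of PLK1 (-0.73 to -0.34). PBK was at 8.56, 8.44 and 8.48 with satellite alpha, against 8.79, 8.75 and 8.74 with GFP, a difference of -0.26 (SE 0.05, limma adjusted p = 0.00188). PBK had the smallest decrease of the 8, and 699 of the 10879 tested genes (6.43%) were lower by at least as much. MASTL, also called Greatwall, was at 8.58, 8.58 and 8.51 with satellite alpha, against 8.44, 8.33 and 8.44 with GFP. All 3 of its satellite alpha values were above the 3 GFP values by a narrow margin. The difference was 0.15 (SE 0.05, limma adjusted p = 0.0453), and 8 of 14 other settings ended the call, including leaving out SATalpha replicate 1 or 2 (0.14 in both) or GFP replicate 1, 2 or 3 (0.17, 0.12 and 0.17).

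**Figure D2:**
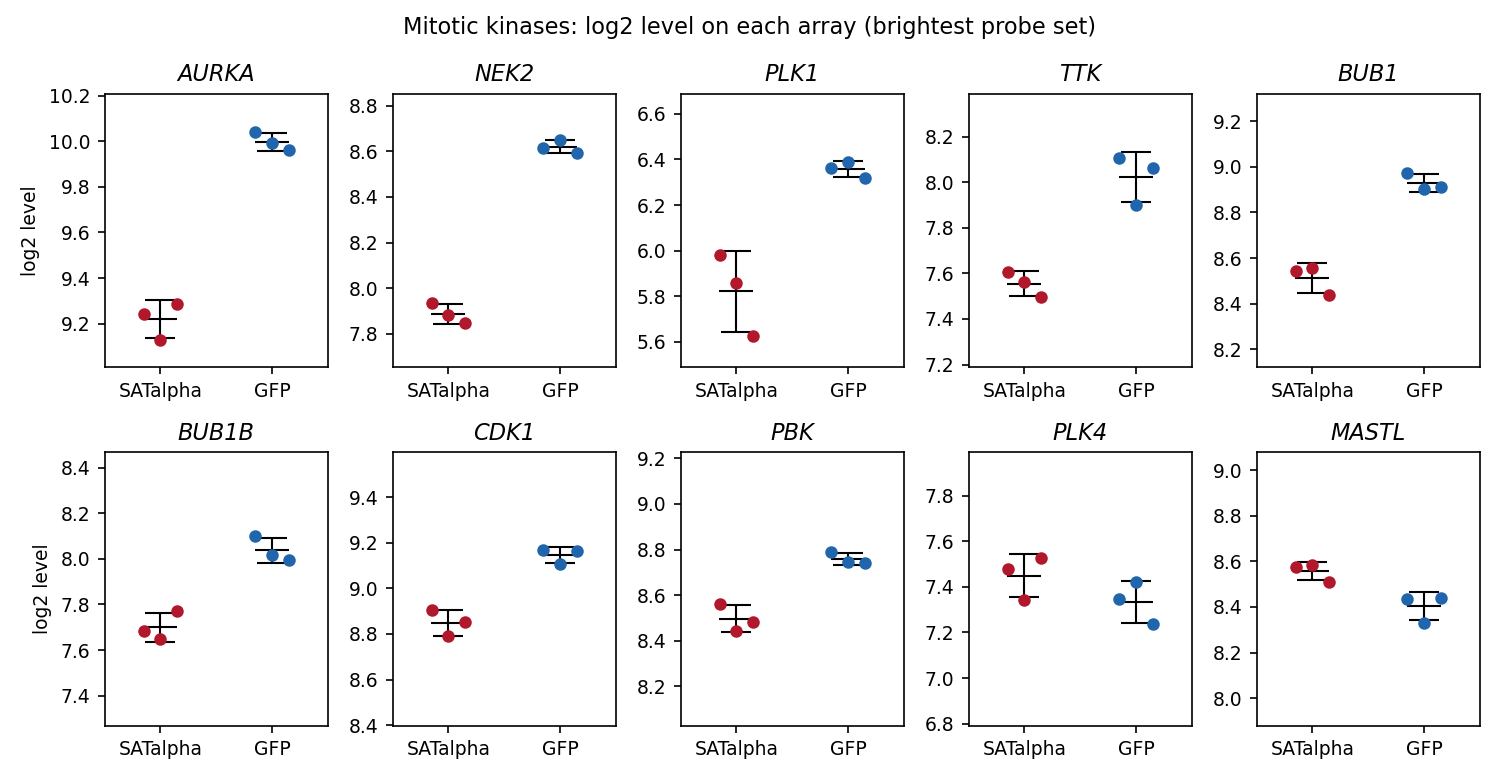
Log2 level of each kinase on each array, SATalpha (red) left of GFP (blue), in order of difference; points are arrays, and bars are mean and SD (n = 3). Each panel spans the same range of 1.2 log2 units, and 8 genes have all SATalpha points below all GFP points.

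The 3 satellite alpha values lay below the 3 GFP values in 8 of the 10 genes, which was so for 23.2% of all tested genes. No array carried the pattern alone. Centred on the GFP mean of each gene, the median over the 10 kinases was -0.37, -0.38 and -0.39 on the satellite alpha arrays, against 0.03, -0.02 and -0.02 on the GFP arrays. SATalpha replicate 1 was the lowest array of its group for 0 of the 10 genes and the highest for 5. GFP replicate 1 was the highest of its group for 6 of the 10 and the lowest for 0.

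**Figure D3:**
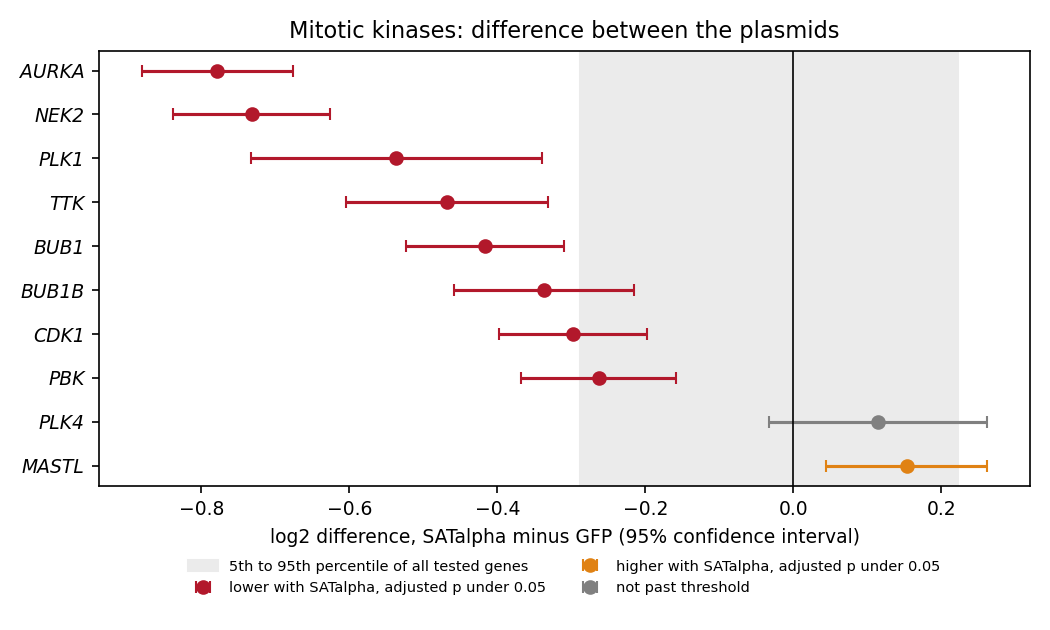
Log2 difference of each kinase, SATalpha minus GFP, with its 95% confidence interval from limma; the grey band spans the 5th to the 95th percentile of differences over all 10879 tested genes. The 8 kinases that fell have intervals wholly below 0, from AURKA at -0.78 to PBK at -0.26.

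Differences between kinases were compared within arrays, for 5 contrasts chosen after their values were seen. Relative to PLK4, PLK1 was lower by 0.65 log2 units more with satellite alpha than with GFP (mean shift -0.65, two-sided exact permutation p = 0.1, adjusted 0.125). CDK1 shifted by -0.45 relative to MASTL, and PLK4 and MASTL shifted by 0.52 and 0.57 relative to the mean of the other 9 kinases (exact permutation p = 0.1 and adjusted 0.125 in each). A p of 0.1 is the smallest that 3 against 3 arrays allow, so none of the 5 contrasts could pass 0.05. BUB1 and BUB1B, related genes of the same checkpoint, shifted by -0.08 against each other with overlapping arrays (exact permutation p = 0.4, adjusted 0.4). Levels of different kinases are not ranked here, because the probe sets differ in how brightly they respond.

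The separate probe sets of a gene bear on how far each decrease can be read. Of the 21 probe sets, 15 passed as lower and 0 as higher, while over all non-control probe sets 4.19% passed as lower and 4.18% as higher (limma with adjustment over all of them). The 15 were among the 18 probe sets with a mean level above 5.19, the floor of the gene test. NEK2 had 7 probe sets, of which 6 fell, by -0.57 to -0.78 with adjusted p-values of 8.97e-07 to 0.00213. The remaining NEK2 probe set, at 2.66, 2.83 and 2.62 with satellite alpha and 2.78, 2.68 and 2.64 with GFP, was near the bottom of the array and differed by 0.01. The 3 PLK1 probe sets differed by -0.54, -0.48 and -0.22. The last of these was also the dimmest and did not pass (limma adjusted p = 0.326). For CDK1 the 2 other probe sets both differed by -0.30, and the dimmest one, with means of 2.53 with satellite alpha and 2.41 with GFP, differed by 0.12 without passing. Averaging that dim probe set with the others gave CDK1 a difference of -0.16 and ended its call (limma adjusted p = 0.0829). Both PLK4 probe sets, at 0.11 and 0.09, did not pass. AURKA, TTK, BUB1, BUB1B, MASTL and PBK had 1 probe set each, so no second probe set of their own checks them, and the TTK probe set is of a kind that can match several transcripts. The MASTL probe set did not pass in the fit over probe sets (limma adjusted p = 0.0911). A probe set listed for AURKA together with AURKAP1 and RAB3GAP2 is no member, but it was at 8.07, 7.98 and 7.72 with satellite alpha, against 8.68, 8.63 and 8.76 with GFP.

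**Figure D4:**
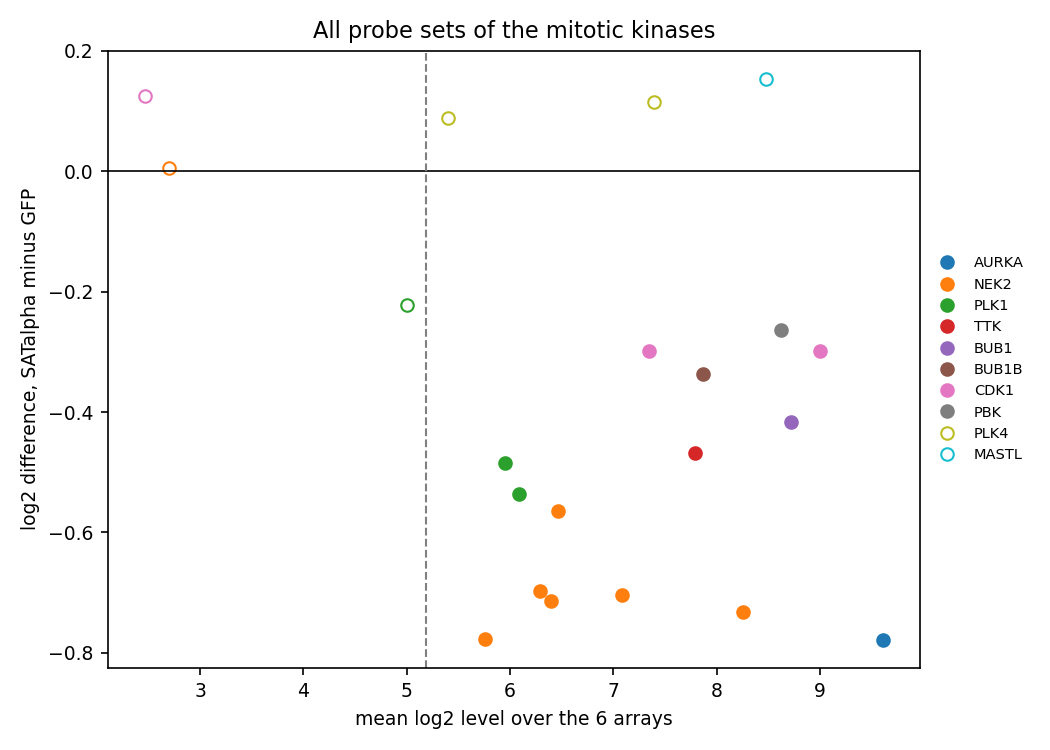
Log2 difference of the 21 kinase probe sets, SATalpha minus GFP, against their mean log2 level over the 6 arrays; filled points passed as lower, open points did not pass, and the dashed line is the floor of the gene test at 5.19. The 3 probe sets left of the line did not pass, and 15 of the 18 right of it fell.

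Genes that work with the kinases are described by counts and medians. Over all tested genes, 13.0% were called lower and 7.72% higher, and a count near those shares is no result about a list. Activators and scaffolds of AURKA and PLK1 had 4 lower and 0 higher of 7 tested, with a median of -0.30. BORA, the cofactor through which AURKA activates PLK1, was at 6.41, 6.42 and 6.58 with satellite alpha, against 7.05, 7.11 and 7.13 with GFP (-0.63, SE 0.07, limma adjusted p = 3.94e-05). TPX2, which activates AURKA on microtubules, was at 8.85, 8.79 and 8.87, against 9.24, 9.27 and 9.27 with GFP (-0.42, SE 0.04, limma adjusted p = 1.82e-05). The AURKA substrate TACC3, which stabilizes spindle fibres, fell by 0.51 and AJUBA, an AURKA activator at centrosomes, by 0.30. The other TACC3 probe sets ran from -0.65 to 0.01. All 3 satellite alpha values were below the GFP values for BORA and TPX2 alike. TPX2 had no other probe set listed for it alone, and its own is of a kind that can match several transcripts.

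Partners and switch enzymes of CDK1 had 7 lower and 2 higher of 10 tested, with a median of -0.26. The mitotic cyclin CCNB1 was at 9.75, 9.78 and 9.77 with satellite alpha, against 10.48, 10.39 and 10.43 with GFP. Its difference of -0.67 (SE 0.04, limma adjusted p = 7.21e-08) was larger than that of CDK1 itself. CCNB2 fell by 0.58, and the small CDK-binding subunits CKS2 and CKS1B by 0.39 and 0.25. Chosen after their values were seen, WEE1, the kinase that holds CDK1 inactive, rose by 0.27 (SE 0.05, limma adjusted p = 0.00106) and the phosphatase CDC25A by 0.26 (adjusted p = 0.00611). WEE1 was at 9.59, 9.60 and 9.49 with satellite alpha, against 9.24, 9.33 and 9.31 with GFP, with no overlap. Its values too rest on a lone probe set of a kind that can match several transcripts. The related phosphatases CDC25B and CDC25C, also chosen after their values were seen, fell by 0.35 and 0.25 (limma adjusted p = 0.00273 and 0.0349), so the CDC25 family moved both ways. CDC25B lost its call as the mean of its probe sets (-0.15). CDC25C lost its call without SATalpha replicate 1 or 2 or GFP replicate 1 or 2 (-0.30 to -0.21 over the arrays left out) and as the mean of its probe sets (-0.13).

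Other parts of the pathway moved less as groups, and their counts stand beside 13.0% lower and 7.72% higher over all tested genes. Spindle checkpoint partners of TTK, BUB1 and BUB1B had 3 lower and 0 higher of 12, with a median of -0.07. CDC20, the target of the checkpoint, was at 9.02, 8.93 and 8.93 with satellite alpha, against 9.70, 9.61 and 9.60 with GFP (-0.68, SE 0.05, limma adjusted p = 2.66e-07), although 1 of its other probe sets differed by 0.04 and the mean of its probe sets by -0.42. ZWINT and SPDL1, kinetochore proteins, fell by 0.13 and 0.16 (adjusted p = 0.0280 and 0.0401). Without SATalpha replicate 1 or GFP replicate 1 or 3 both lost their calls, and SPDL1 also without SATalpha replicate 2, at -0.15 to -0.11 for ZWINT and -0.20 to -0.12 for SPDL1 over the 6 arrays left out in turn. ZWINT did not pass either as the mean of its probe sets (-0.09) or with probe sets ending in _s_at or _x_at left out (-0.06). Centriole partners of PLK4 had 1 lower and 0 higher of 6, with a median of -0.17. That gene, SASS6, of the centriole cartwheel, fell by 0.26 (adjusted p = 0.0433), with -0.32 to -0.23 over the arrays left out. Its call was lost without SATalpha replicate 2 or 3 or any GFP array, and its other probe set differed by 0.01. Substrates of MASTL and subunits of the PP2A-B55 phosphatase it restrains had 1 lower and 1 higher of 8. The scaffold PPP2R1B rose by 0.33 (limma adjusted p = 0.00220), with 0.07 to 0.27 in its other probe sets and 0.19 as the mean of all of them (adjusted p = 0.0440). The B55 subunit PPP2R2D fell by 0.21 with an adjusted p of 0.0278, which did not hold without SATalpha replicate 1 or 2 or GFP replicate 1 or 3 (-0.24 to -0.19 over the arrays left out).

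Of 9 other kinases of mitosis, 3 fell and 0 rose, with a median of -0.03. AURKB, the Aurora kinase of the chromosomal passenger complex, was at 7.16, 7.18 and 7.22 with satellite alpha, against 7.64, 7.61 and 7.47 with GFP. Its difference was -0.38 (SE 0.06, limma adjusted p = 0.000796). VRK1, a chromatin kinase, fell by 0.33 and MELK by 0.22, the MELK call being lost without SATalpha replicate 1 or 2 or GFP replicate 1 or 3 (-0.27 to -0.16 over the arrays left out). Among 8 paralogs of the kinases that are not confined to mitosis, 1 fell and 0 rose, with a median of -0.0043. That is near the 13.0% of all tested genes that fell. The paralog that fell was PLK3, a stress-responsive relative of PLK1, at -0.21 (adjusted p = 0.0363). Its call was lost with any of the 5 arrays other than SATalpha replicate 3 left out (-0.23 to -0.18 over the 6). Kinases of G1, S phase and the damage checkpoint had 2 lower and 0 higher of 8, with a median of -0.12. CDK7, the kinase that activates CDKs, fell by 0.19 (limma adjusted p = 0.0114), not past the threshold without GFP replicate 1 (-0.16). CDK4, of G1, fell by 0.13 with an adjusted p of 0.0305. That call ended without SATalpha replicate 2 or 3 or any GFP array (-0.15 to -0.11 over the 6), and the direction turned as the mean of its probe sets (0.02).

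Enzymes that act with or against the kinases at mitotic exit had 3 lower and 0 higher of 7, with a median of -0.05. The ubiquitin-conjugating enzymes of the anaphase-promoting complex were both lower. UBE2S was at 9.85, 9.79 and 9.90 with satellite alpha, against 10.62, 10.68 and 10.54 with GFP. It fell by 0.77 (limma adjusted p = 7.21e-08), and UBE2C fell by 0.34. The UBE2S probe set, the only one listed for that gene alone, is of a kind that can match several transcripts. The phosphatase subunit PPP1CA fell by 0.17 (adjusted p = 0.00600), but its other probe set differed by 0.05 and the mean of both by -0.06, not past the threshold. Transcription factors of G2 and mitotic genes had 2 lower and 0 higher of 13, with a median of -0.07. Their share of lower genes was near the 13.0% of all tested genes. LIN37, of the complex that binds CHR elements, fell by 0.25 (limma adjusted p = 0.00795). E2F4, its E2F subunit, fell by 0.17 with an adjusted p of 0.0260. That call ended without SATalpha replicate 1 or 3 or any GFP array (-0.19 to -0.14 over the 6) and as the mean of its probe sets (-0.15). Chosen after their values were seen, the activators FOXM1 and MYBL2 differed by -0.07 and -0.08 and did not pass (limma adjusted p = 0.498 and 0.484). The 2 other FOXM1 probe sets differed by -0.24 and -0.0030.

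Of 16 DNA replication proteins, 0 fell and 2 rose, with a median of 0.09, while 13.0% of all tested genes fell and 7.72% rose. CDC6, which loads the replicative helicase, rose by 0.24 (limma adjusted p = 0.00389), a call not made for the mean of its probe sets (0.12). MCM7, of that helicase, rose by 0.12 (adjusted p = 0.0298), and its call was lost without SATalpha replicate 1 or any GFP array (0.11 to 0.14 over the arrays left out) and under quantile normalization (0.10).

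**Figure D5:**
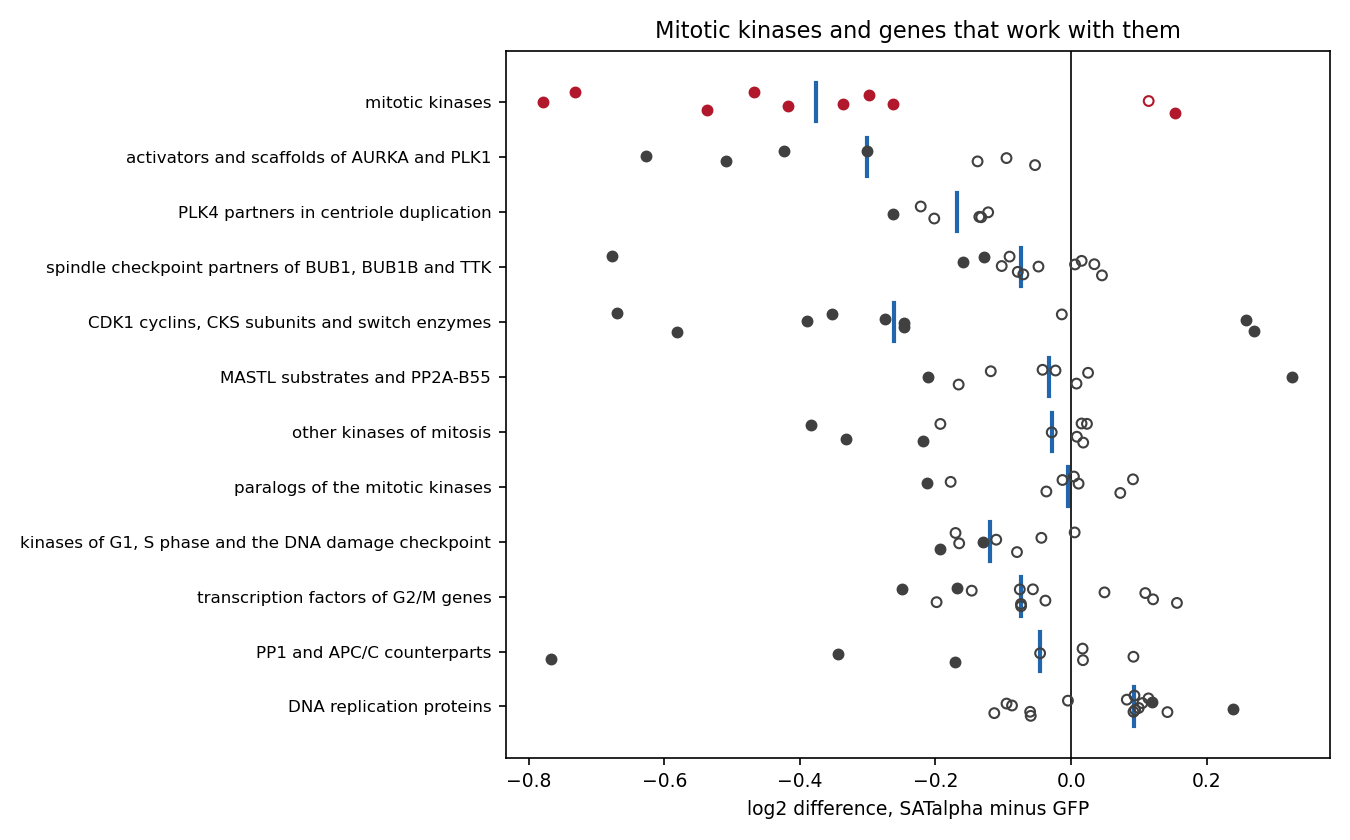
Log2 difference, SATalpha minus GFP, of every tested gene in the kinase set (red, top row) and in 11 lists of genes that work with them or in other phases of the cell cycle; filled points passed the threshold, open points did not, and blue bars are list medians. The kinase set has the median of -0.38, and the DNA replication proteins at the bottom have one of 0.09.

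By the rule for likeness, 5 tested genes outside the set lay closest to the mean profile of the 10 kinases over the 6 arrays. They were PLCXD1, SMIM19, TIMM9, PMS1 and ANAPC7, with root mean square distances of 0.0182 to 0.0297 log2 units. PLCXD1, for example, differed by -0.36 between the plasmids, where the mean of the kinases differed by -0.36 too. ANAPC7 encodes a subunit of the anaphase-promoting complex, TIMM9 a mitochondrial import chaperone and PMS1 a mismatch repair protein. With 6 arrays in 2 groups, likeness rests mainly on the size of the group difference.

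The arrays showed no sign of a stray library: their medians lay between 5.29 and 5.31, and correlations over tested genes were 0.996 to 0.998 within groups and 0.993 to 0.994 between them, although genes are not independent replicates. Of 14 markers of retinal pigment epithelium, the keratins KRT18 and KRT8 were bright, with means of 12.00 and 11.35 with satellite alpha and 12.22 and 11.48 with GFP, and OTX2 and MITF were above the floor. RPE65, RLBP1, BEST1, TYRP1, LRAT and TTR, which mark mature pigment epithelium, were below the floor in mean level, and RPE65 averaged 3.33 with satellite alpha and 3.48 with GFP. The mean over the 14 markers was 6.60 to 6.64 with satellite alpha and 6.67 to 6.69 with GFP, lower with satellite alpha as the kinases were, and its part in their decrease was not tested. Not every marker was lower. EZR was at 11.01, 11.13 and 11.01 with satellite alpha, against 10.96, 10.90 and 11.01 with GFP, with no overlap before rounding and a difference of 0.10 that did not pass (limma adjusted p = 0.126). PMEL differed by 0.09 (adjusted p = 0.511), and TTR, which was not tested, averaged 5.31 with satellite alpha and 5.07 with GFP. KRT18 fell by 0.21 (limma adjusted p = 0.000675) and KRT8 by 0.13 (adjusted p = 0.0266, with -0.15 to -0.10 over the arrays left out). The KRT8 call was lost without SATalpha replicate 1 or 2 or GFP replicate 1 or 3, and as the mean of its probe sets (-0.03). For markers of other cells, the means over 5 leukocyte genes were 4.27 to 4.30 with satellite alpha and 4.21 to 4.40 with GFP, and over 4 endothelial genes 4.36 to 4.52 with satellite alpha and 4.32 to 4.43 with GFP. Over 5 photoreceptor and glial genes they were 4.85 to 4.95 with satellite alpha and 4.94 to 5.09 with GFP. The leukocyte marker CD68 differed by -0.06, the endothelial markers PECAM1 and VWF by 0.19 and 0.13, GFAP of glia by -0.15 and the photoreceptor factor CRX by -0.13, and none of the 5 passed (limma adjusted p = 0.253 to 0.445). These small differences depended on single arrays. With each array left out in turn they ran from -0.08 to -0.04 (without GFP replicate 2) for CD68, 0.09 (without SATalpha replicate 2) to 0.27 for PECAM1 and 0.05 (without SATalpha replicate 3) to 0.21 for VWF. For GFAP they ran from -0.22 to -0.09 (without SATalpha replicate 1), and for CRX from -0.21 (without SATalpha replicate 3) to -0.03 (without GFP replicate 1).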

How the data were processed

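The deposited log2 values were taken as already normalized between arrays, since the array medians lay between 5.29 and 5.31. The array maxima were less alike, at 13.98 to 14.01 with satellite alpha and 14.31 to 14.32 with GFP. MAS5 and RMA are named, with no role, in the submitters' processing notes. No level could be compared with its background, because scanner files were not used here. The base was read from the array maxima. Of 49372 probe sets, 79 controls were left out. Symbols came from the platform annotation. Each gene was its probe set with the highest mean, and the lowest 40% of genes were left out.

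Groups were compared with limma 3.58.1 in R 4.3.3 (lmFit, eBayes with a mean-variance trend, Benjamini-Hochberg adjustment, threshold 0.05). A second fit took all non-control probe sets without a filter. Contrasts between kinases used exact permutation in SciPy 1.17.1. Precision is limited by the number of arrays (median SE 0.06).

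The comparison of SATalpha with GFP was tested on simulated data of 10879 genes, where 39.7% of genes changed 1.2-fold, 92.1% changed 1.5-fold and 98.9% changed 2-fold were recovered. Only 200 genes were changed there, while the data had 1419 genes called lower and 840 higher. The adjusted threshold therefore differs, and these shares do not carry over to the data directly.

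The kinases and the gene lists were chosen with earlier results of these data known. Named were all kinases, up to 4 called members of each list by smallest p (or 2 as values where none passed) and 5 genes by likeness. The promoter motifs were chosen later. Alternatives were other filters, normalizations, probe set rules, variance models, a replicate block and each array left out. Replicate numbers did not pair the arrays.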

Additional observations from a re-analysis of the deposited data

How the results depend on the processing

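The count of 8 lower kinases was kept under the other filters, normalizations, variance model and left-out arrays, except for 7 where the lowest 60% of genes were left out (PLK1 was then not tested), where probe sets of the cross-matching kinds _s_at and _x_at were dropped (TTK was then not tested) and with the mean of all probe sets (CDK1 lost its call). Without PLK1 or TTK the median moved to -0.34. The other 7 lower kinases kept their call in every setting that tested them, with adjusted p-values up to 0.0191. The number of higher kinases, 1 in the reported fit, was 0 with no filter, with a replicate block and without the mean-variance trend. With each array left out in turn, it was 0 to 1, the median -0.39 to -0.35, the lower kinases 8 throughout, all lower genes 742 (without GFP replicate 1) to 1622 and all higher genes 474 to 898. Without SATalpha replicate 1 the numbers were 887 and 509, and without GFP replicate 2, 911 were lower. With a replicate block, 817 genes were lower and 483 higher, against 1419 and 840 without it, and 8 kinases were still lower. Same-numbered arrays of the 2 groups had deviations correlating at -0.0035, -0.24 and -0.29, so the numbers gave no pairing. CDK4 turned to 0.0231 as the mean of its probe sets. Among 39 named genes of the other lists, 15 lost a call under at least 1 alternative. Detection calls were not used here, so the dim probe sets of NEK2, CDK1 and PLK1 were not set against background.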
